A study of Mus musculus with 60 samples.

Results

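This section describes 35 genes that mark the cells of blood vessels in the brain, 23 of them endothelial and 12 mural, among 18088 genes measured in mouse prefrontal cortex. They were taken by symbol from 2 lists of marker genes, and all 35 were found in the table. The mice were C57BL/6J, of both sexes, and were sampled on postnatal day 25. Het mice were heterozygous for the N2373K allele of Chd8 (Chd8+/N2373K), which encodes a chromatin remodeler, and WT mice were their wild-type counterparts. Het and WT pups alike were exposed through the mother's milk from day 3 to day 24, a span of 3 weeks, either to fluoxetine, to lithium or to vehicle. There were therefore 12 groups of 5 libraries, namely Het fluoxetine, Het lithium, Het vehicle, WT fluoxetine, WT lithium and WT vehicle, each in males and in females, and 60 libraries in all. The labels do not name litters or dams, and the drug reached all pups by way of the dam. Each value below is a normalized count, that is, the authors' read count of a gene divided by a factor for the depth of its library. Levels of different genes are set against each other only per kilobase of exon, and differences within a gene are given as log2 fold changes with their standard errors.

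Endothelial cells line the vessels and, in the brain, seal them into the blood-brain barrier through tight junctions, efflux pumps and selective carriers. Mural cells wrap around that lining, pericytes on capillaries and smooth muscle cells on arterioles and venules. They are recruited by platelet-derived growth factor from the endothelium and tuned by Notch, angiopoietin and endothelin signals that run between both layers.

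All 35 genes were expressed, and all passed the filter on low values. The lowest value of any of them in any library was 22.9 normalized counts, of Aplnr. Per kilobase of exon the endothelial genes ran from 1110 ± 167 for Slc2a1 (SD over 60 libraries), the glucose transporter of the barrier, through 658 ± 84 for Cldn5, the main claudin of brain endothelium, to 21.7 ± 9.46 for Aplnr, the apelin receptor. Among mural genes Rgs5, a regulator of G protein signals in pericytes, led with 906 ± 163 per kilobase. It was followed by Vtn (vitronectin) at 813 ± 145, a secreted protein of brain pericytes, and by Acta2 (smooth muscle actin) at 201 ± 41.9, with Abcc9, a subunit of the pericyte potassium channel, lowest at 39.8 ± 4.68. Values within a group of 5 scattered least for Abcg2 and Cldn5, with a median coefficient of variation of 8.64% and 8.79%. They scattered most for Aplnr (28.8%), Acta2 (21.5%) and Edn1 (20.8%).

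A few facts of the libraries bear on the values. The libraries held 24.05 to 31.65 M reads (median 28.31 M), as recovered from the steps of the normalized values. Chd8 stood at 2671 ± 134 in Het and at 3094 ± 91.7 in WT libraries (SD, n = 30 each). Het libraries ran from 2421 to 3072 and WT libraries from 2951 to 3285, and 1 Het library, Het fluoxetine male replicate 5, lay above the lowest WT library. The summed level of 12 olfactory bulb genes ran from 2716 to 41914 across libraries, although the labels name prefrontal cortex alone. WT vehicle male replicate 5 stood apart in the vascular genes. It was the one library of its group far from the others for 8 of the 35 genes, and its endothelial sum of 20642 was the highest of the WT vehicle libraries. Nothing in the labels says that replicates came from separate litters, so p-values measure the spread between these mice only.

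Fluoxetine changed the vascular genes of Het mice in both directions. Of the 23 endothelial genes 11 were lower and 2 higher than in Het vehicle mice, and of the 12 mural genes 4 were lower and none higher, with males and females averaged. A gene is called here when its adjusted p is under 0.05 in limma's test across all 17807 genes that passed the filter, with Benjamini-Hochberg adjustment. In this comparison 16% of all tested genes were called lower and 16.9% higher. The median log2 fold change was −0.21 over the endothelial and −0.27 over the mural genes, against 0.005 over all genes. In bulk tissue, fewer cells of a type and less RNA per cell cannot be told apart. Both genes that were higher, Edn1 and Slc2a1, were also called higher in WT mice.

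**Figure D1:**
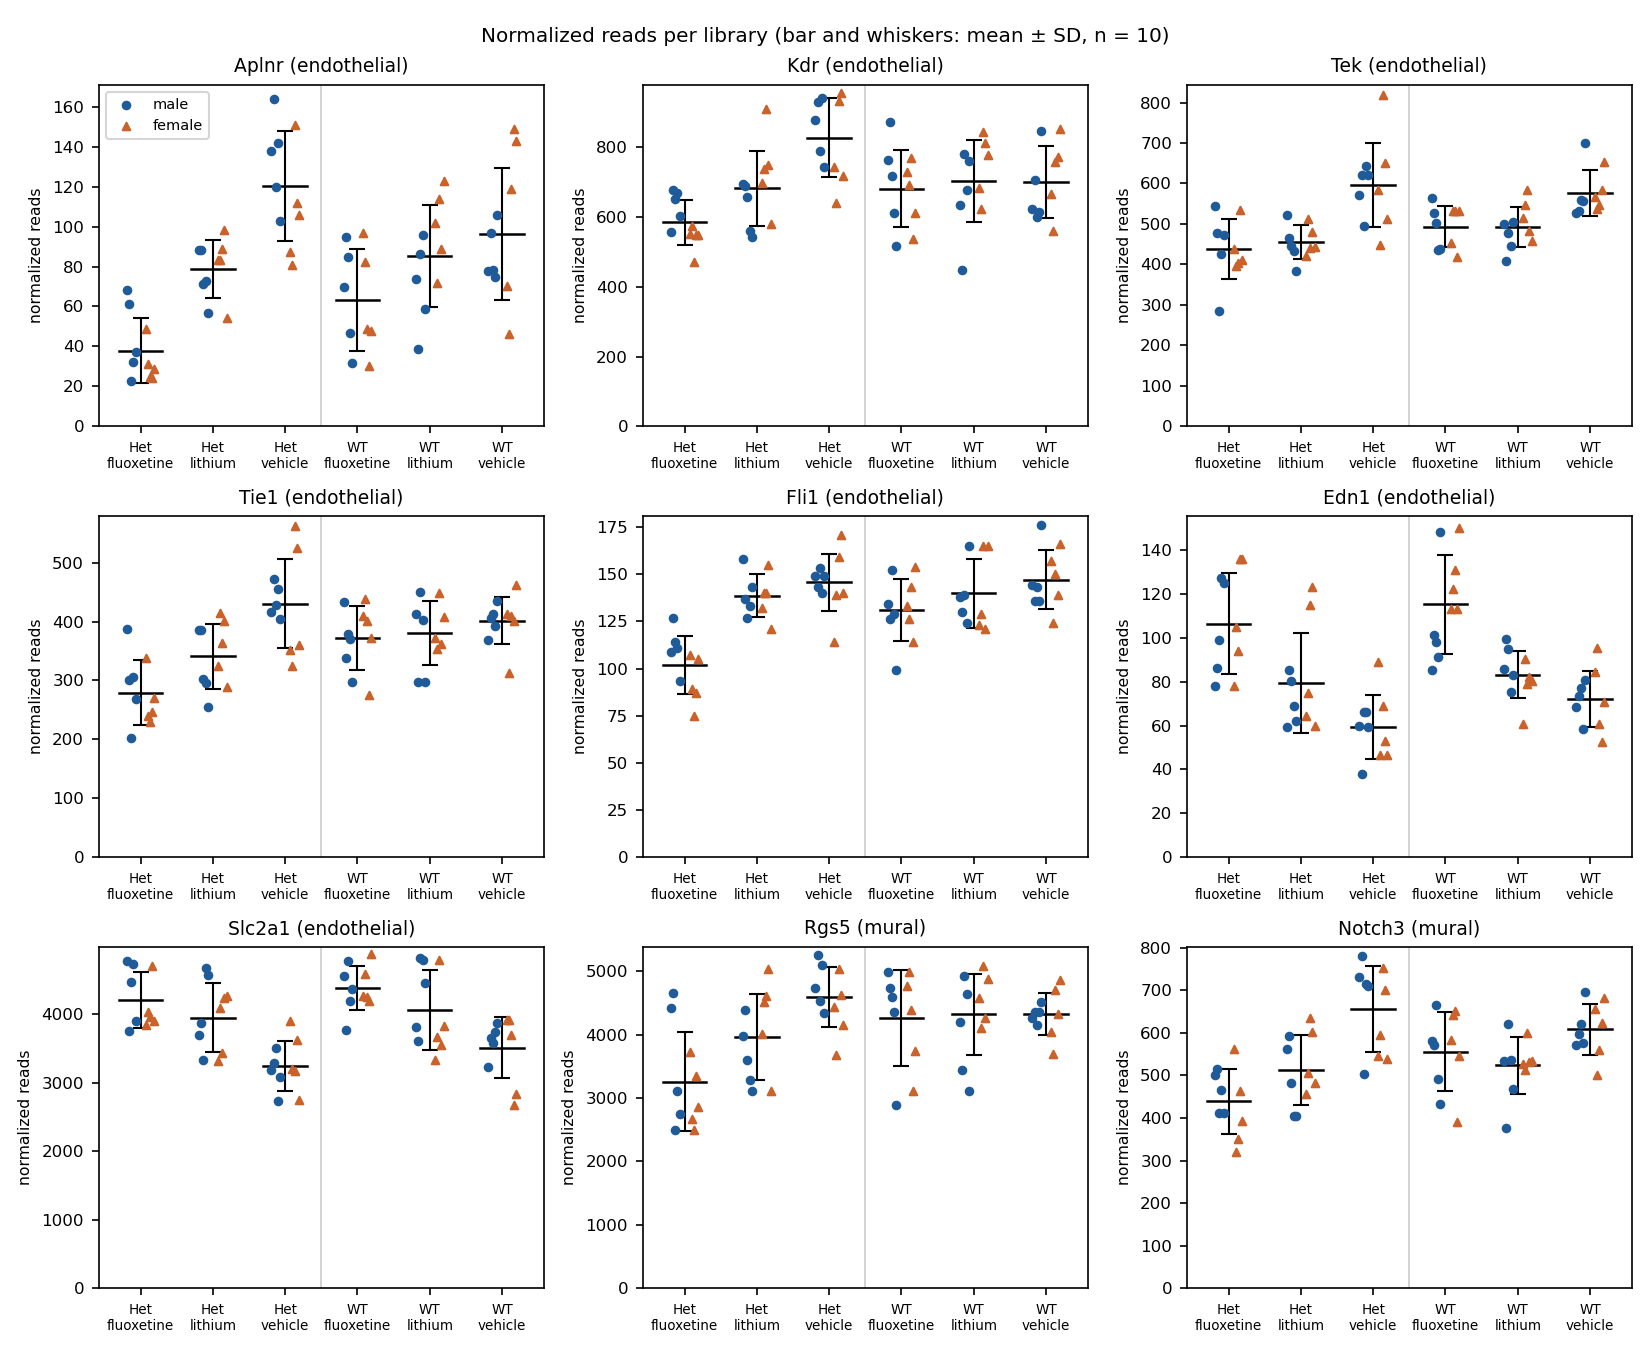
Normalized counts of 9 vascular genes in each library (y axis, linear) for Het fluoxetine, Het lithium, Het vehicle, WT fluoxetine, WT lithium and WT vehicle mice (x axis). Circles are males and triangles females, and bars give the mean ± SD of 10 libraries. Aplnr in Het fluoxetine libraries lies at 22.9 to 68.3, below all Het vehicle libraries at 80.9 to 164, while Edn1 and Slc2a1 stand higher with fluoxetine in both genotypes.

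Aplnr, which binds apelin and acts in venous and sprouting endothelium (chromosome 2, 85136225 to 85139923 on GRCm38), moved most of the 35 genes. Its levels in Het fluoxetine libraries were 22.9 to 68.3 (median 31.5), against 80.9 to 164 (median 116) in Het vehicle libraries. Every Het fluoxetine library lay below every Het vehicle library. The means were 37.9 ± 16.1 and 120 ± 27.6 (SD, n = 10 each), a log2 fold change of −1.71 ± 0.21 (limma, adjusted p = 1.89e-08). On that scale the level fell by 69.4%. Within Het fluoxetine females replicate 1 stood higher at 48.9, with the other 4 at 24.1 to 31. Within Het fluoxetine males replicates 1 and 2 stood higher still at 68.3 and 61.1, with the others at 22.9 to 37.1.

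Kinase receptors that receive vessel growth signals were lower beside it. Kdr, the main receptor for vascular endothelial growth factor (chromosome 5, 75932827 to 75978458), stood at 472 to 676 (median 566) in Het fluoxetine libraries and at 639 to 954 (median 833) in Het vehicle libraries. The ranges touched only between 639 and 676. The change was −0.49 ± 0.09 (adjusted p = 5.46e-05), with all 10 Het fluoxetine libraries below the Het vehicle mean of 826. Flt1, the decoy-like receptor for the same ligand, differed by −0.14 ± 0.07 and was not called (adjusted p = 0.108).

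Tek and Tie1 encode the angiopoietin receptor and its partner, which keep mature vessels quiet. Tie1 (chromosome 4, 118471191 to 118490061) stood at 203 to 388 (median 270) in Het fluoxetine libraries, against 325 to 562 (median 423) in Het vehicle libraries. Tek (chromosome 4, 94739289 to 94874976) stood at 286 to 544 (median 431), against 447 to 818 (median 603). Both pairs of groups overlapped in part, and all 10 Het fluoxetine libraries lay below the Het vehicle mean for either gene. The changes were −0.63 ± 0.10 for Tie1 (adjusted p = 7.01e-06) and −0.45 ± 0.09 for Tek (adjusted p = 6.45e-05). Eng (endoglin), a co-receptor for transforming growth factor beta, was lower by a smaller amount, 668 ± 66.6 against 814 ± 84 (SD, n = 10 each; −0.29 ± 0.08, adjusted p = 0.00524).

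Since Tek and Tie1 moved together, their promoter windows are given, each reaching from 250 bases before to 50 bases after the annotated start and taken from RefSeq on GRCm38.p6. Capitals mark ETS core words (AGGAAG or its reverse complement CTTCCT) and GATA words (AGATAA or TTATCT), the letters read by ETS and GATA transcription factors.
Tie1, chr4:118489800-118490099, minus strand: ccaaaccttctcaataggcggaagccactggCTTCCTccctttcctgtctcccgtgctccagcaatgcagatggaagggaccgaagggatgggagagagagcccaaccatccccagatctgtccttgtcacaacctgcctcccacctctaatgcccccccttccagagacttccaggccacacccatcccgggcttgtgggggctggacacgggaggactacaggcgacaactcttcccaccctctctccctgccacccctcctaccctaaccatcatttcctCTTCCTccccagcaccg
Tek, chr4:94739039-94739338, plus strand: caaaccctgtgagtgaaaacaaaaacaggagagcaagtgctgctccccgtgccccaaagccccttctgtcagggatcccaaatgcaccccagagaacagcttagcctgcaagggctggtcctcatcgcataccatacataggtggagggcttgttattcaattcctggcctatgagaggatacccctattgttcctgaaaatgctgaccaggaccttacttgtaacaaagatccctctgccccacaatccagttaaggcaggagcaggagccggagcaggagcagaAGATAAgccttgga
The Tie1 window holds the ETS word at 2 places, bases −219 and 34 counted from the start, and the Tek window holds a GATA word at base 37. For Tie1 the RefSeq start lies inside the gene span given above, whose upstream end is 118490061. Most of the Tie1 bases before the start therefore fall within that span. RefSeq windows were found for 22 of the 35 genes. The ETS word was in a window of 9 of these 22 genes and in 35.4% of all 32851 windows, and the GATA word in 4 of the 22 and in 11.2% of all. In each motif count given here a gene counts if any of its windows holds the word, and Abcg2, Erg and Ly6c1 have several. The share over all is counted per window, so it is not strictly comparable. A match describes letters only.

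Among the transcription factors of the endothelium Fli1 was called alone. Fli1, an ETS factor of blood and endothelial cells, stood at 74.6 to 127 (median 106) in Het fluoxetine libraries and at 114 to 171 (median 146) in Het vehicle libraries. It changed by −0.52 ± 0.08 (adjusted p = 1.47e-06), below the Het vehicle mean in 10 of 10 libraries. Its relative Erg differed by −0.08 ± 0.08 (adjusted p = 0.426). Sox17 and Sox18, factors of arterial and early endothelium, differed by −0.17 ± 0.10 and −0.02 ± 0.10 (adjusted p = 0.198 and 0.898).

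Several junction and surface genes were lower as well. Cldn5, the tight junction protein that closes the barrier to small molecules, stood at 693 to 1000 (median 856) in Het fluoxetine and 792 to 1327 (median 1096) in Het vehicle libraries (−0.33 ± 0.07, adjusted p = 2.60e-04). Cdh5, the cadherin of endothelial adherens junctions, stood at 470 ± 85.5 and 609 ± 85.3 (SD, n = 10 each; −0.38 ± 0.09, adjusted p = 7.60e-04). The groups overlapped for both genes. Emcn (endomucin), a sialomucin of veins and capillaries, stood at 124 ± 19.7 and 172 ± 23 (SD, n = 10 each; −0.47 ± 0.12, adjusted p = 0.00147). The adhesion molecules Pecam1 and Esam changed by −0.23 ± 0.08 and −0.25 ± 0.08 (adjusted p = 0.0251 and 0.0178). Without Het fluoxetine male replicate 5 Esam stood at −0.19 and was no longer called. Pecam1 stood at −0.21 to −0.17 and was not called without Het fluoxetine female replicate 3, Het fluoxetine male replicate 3, Het vehicle female replicate 3 or Het vehicle male replicate 2.

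Other surface and clotting genes were not called. Vwf, the clotting factor stored in endothelial granules, differed by −0.21 ± 0.12 (adjusted p = 0.175). The surface antigens Ly6c1 and Ly6a stood at 0.10 ± 0.09 and 0.13 ± 0.14 (adjusted p = 0.41 and 0.487), with reads that near-identical family members may share.

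Of the carriers and pumps of the barrier, the glucose transporter alone rose. Slc2a1 (chromosome 4, 119108711 to 119137983) stood at 3751 to 4774 (median 3992) in Het fluoxetine libraries, against 2739 to 3898 (median 3196) in Het vehicle libraries. All 10 Het fluoxetine libraries were above the Het vehicle mean of 3243, and the ranges overlapped only between 3751 and 3898. The change was 0.38 ± 0.07 (adjusted p = 9.80e-05). The efflux pumps Abcb1a (P-glycoprotein) and Abcg2 differed by 0.03 ± 0.06 and 0.04 ± 0.06 (adjusted p = 0.715 and 0.629). The organic anion carrier Slco1a4 differed by −0.05 ± 0.07 (adjusted p = 0.623). The 95% intervals ran from −0.09 to 0.16, −0.08 to 0.16 and −0.19 to 0.09 for Abcb1a, Abcg2 and Slco1a4.

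Edn1 rose in the same mice. It encodes endothelin, a peptide from the endothelium that constricts vessels (chromosome 13, 42301476 to 42307990). Its levels were 77.8 to 136 (median 102) in Het fluoxetine libraries and 37.9 to 89 (median 59.7) in Het vehicle libraries. The means were 106 ± 23 and 59.4 ± 14.5 (SD, n = 10 each), a log2 fold change of 0.84 ± 0.13 (adjusted p = 4.04e-06) or 78.7% more. All 10 Het fluoxetine libraries lay above the Het vehicle mean, with an overlap between 77.8 and 89.

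Edn1 and Slc2a1 are the genes of the list that rose with fluoxetine in both genotypes, so their promoter windows are given in the same way. Capitals mark the core of the hypoxia response element (ACGTG or CACGT) and, in Edn1, also a GATA word.
Edn1, chr13:42301226-42301525, plus strand: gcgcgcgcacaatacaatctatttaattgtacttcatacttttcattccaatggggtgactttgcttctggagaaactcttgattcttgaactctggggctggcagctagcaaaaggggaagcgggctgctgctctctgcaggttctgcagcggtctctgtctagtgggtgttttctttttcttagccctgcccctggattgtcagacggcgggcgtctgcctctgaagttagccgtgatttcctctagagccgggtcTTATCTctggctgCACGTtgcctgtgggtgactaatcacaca
Slc2a1, chr4:119108495-119108794, plus strand: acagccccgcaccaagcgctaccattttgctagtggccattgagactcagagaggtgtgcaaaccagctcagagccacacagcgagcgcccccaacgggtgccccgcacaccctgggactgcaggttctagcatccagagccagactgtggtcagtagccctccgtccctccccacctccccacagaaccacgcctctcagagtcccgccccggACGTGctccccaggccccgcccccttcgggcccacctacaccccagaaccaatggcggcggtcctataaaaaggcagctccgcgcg
The hypoxia core lies at base 22 in the Edn1 window and at base −36 in the Slc2a1 window, and the GATA word of Edn1 at base 9. The hypoxia core was found in 3 of the 22 genes with a window and in 19.6% of all windows. The remaining gene of these was Notch3, with the core at bases −186 and 38. Unlike Edn1 and Slc2a1, Notch3 was called lower with fluoxetine in Het mice. The AP-1 word (TGACTCA or TGAGTCA) was in none of the 22 and in 5.2% of all.

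Of the 12 mural genes Notch3, Rgs5, Pdgfrb and Anpep were called lower in Het mice. Notch3, the Notch receptor of mural cells (chromosome 17, 32120820 to 32166852), stood at 321 to 563 (median 437) in Het fluoxetine libraries and at 504 to 780 (median 704) in Het vehicle libraries. Rgs5 stood at 2489 to 4656 (median 2988) and at 3672 to 5249 (median 4582). Its level was 3727 in Het fluoxetine female replicate 1 and 4417 and 4656 in male replicates 1 and 2. These lay within the Het vehicle range, and the other Het fluoxetine libraries stood at 2489 to 3348. The ranges overlapped in both genes, and 10 of 10 Het fluoxetine libraries for Notch3 and 9 of 10 for Rgs5 lay below the Het vehicle mean. Notch3 changed by −0.58 ± 0.10 (adjusted p = 9.99e-06) and Rgs5 by −0.52 ± 0.10 (adjusted p = 8.85e-05).

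Pdgfrb, the receptor that recruits pericytes (chromosome 18, 61045150 to 61085061), stood at 569 to 871 (median 652) in Het fluoxetine and at 688 to 1068 (median 834) in Het vehicle libraries, a change of −0.35 ± 0.07 (adjusted p = 1.43e-04). The groups overlapped, and 9 of 10 Het fluoxetine libraries lay below the Het vehicle mean. Anpep, a peptidase on the surface of brain pericytes, stood at 177 ± 54.3 and 244 ± 50.3 (SD, n = 10 each; −0.49 ± 0.13, adjusted p = 0.00385). Mcam, an adhesion molecule of mural and endothelial cells, stood at −0.33 ± 0.13, just short of the threshold (adjusted p = 0.0511). Of the smooth muscle genes, Acta2 differed by −0.16 ± 0.13, Tagln by 0.02 ± 0.11 and the myosin Myh11 by −0.32 ± 0.14 (adjusted p = 0.385, 0.914 and 0.0612). The channel subunits Kcnj8 and Abcc9 differed by −0.08 ± 0.10 and −0.05 ± 0.07 and the pericyte gene Higd1b by −0.01 ± 0.13 (adjusted p = 0.595, 0.612 and 0.947). Vtn stood at −0.21 ± 0.11 (adjusted p = 0.125).

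**Figure D2:**
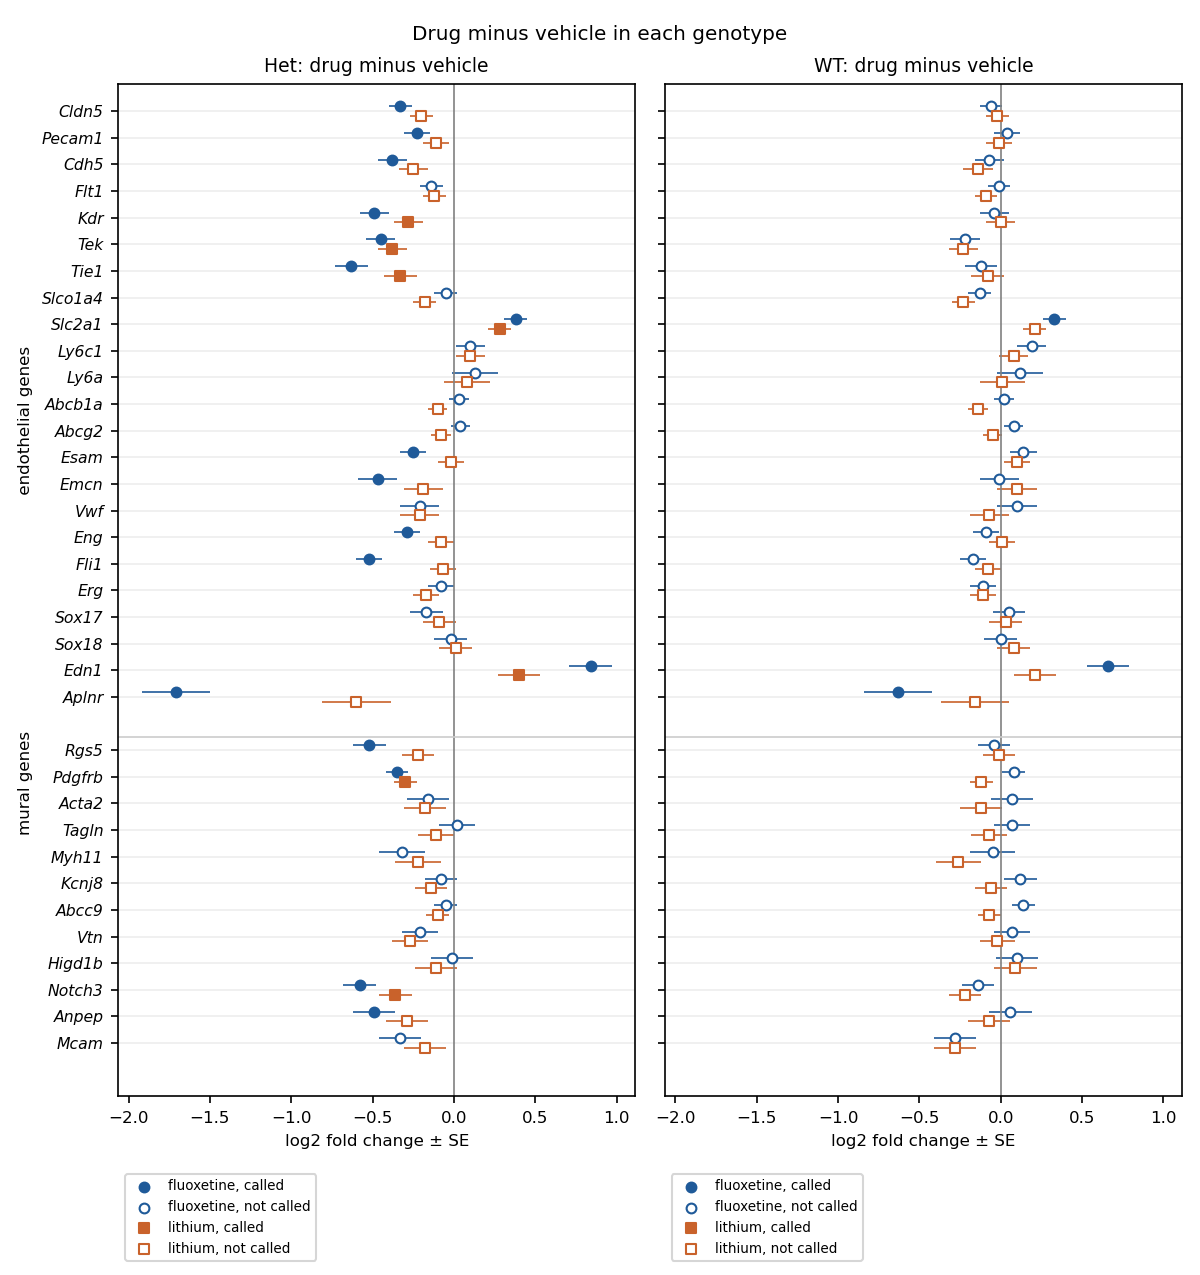
Log2 fold change ± SE of each gene for fluoxetine minus vehicle (blue circles) and lithium minus vehicle (orange squares), in Het mice (left) and WT mice (right) on the same scale. Filled symbols are called. In Het mice fluoxetine called 11 endothelial and 4 mural genes lower and 2 endothelial genes higher, and in WT mice Slc2a1 and Edn1 higher and Aplnr lower.

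Markers of other cells were counted in the same comparison, where 16% of all genes were called lower and 16.9% higher. The counts of 1 or 2 genes below lie near those shares and are not read as a change of a cell type. Of 14 genes of leptomeningeal fibroblasts, the cells of the membranes over the cortex, 10 were lower and none higher in Het fluoxetine mice, with a median of −0.45. Their summed level ran from 6271 to 12859 in Het fluoxetine libraries and from 6557 to 13187 in Het vehicle libraries, and none of the 14 was at 0. Of these, Col3a1 changed by −0.76 ± 0.16 and Lum by −0.76 ± 0.16 (adjusted p = 1.86e-04 and 3.47e-04). Of 10 microglial genes 5 were lower (median −0.18), with sums of 7369 to 14203 and 10522 to 14474 in Het fluoxetine and Het vehicle libraries. Of 7 perivascular macrophage genes 2 were lower, with sums of 389 to 810 and 479 to 832, and Ms4a7 was at 0 in some libraries. Among 17 glucocorticoid-responsive genes 11 were higher and 1 lower (median 0.41), with sums of 24535 to 34262 and 20887 to 26637. Of 9 genes of astrocyte endfeet, which sheathe the vessels, 2 were lower and 1 higher (median −0.06), with sums of 116513 to 160020 and 120788 to 177968. The endfoot water channel Aqp4 changed by −0.55 ± 0.13 and the potassium channel Kcnj10 by −0.51 ± 0.10 (adjusted p = 9.84e-04 and 9.89e-05). Of 9 striatal genes 2 were higher (median 0.25), with sums of 6564 to 28820 and 5541 to 14928, among them Ppp1r1b at 0.68 ± 0.24 (adjusted p = 0.0236). Of 8 myelin genes 1 was higher (median 0.46), with sums of 35300 to 197484 and 32615 to 155368. The part of these cells and responses in the vascular differences was not tested.

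A fit that held the leptomeningeal score of each library as a covariate, chosen after seeing the data, gave other counts. Then 6 endothelial genes were lower and 6 higher, 8 of the 13 earlier calls among them, and the endothelial median stood at 0.01. Fluoxetine minus vehicle in Het stood there at −1.28 ± 0.19 for Aplnr, −0.37 ± 0.09 for Tie1, −0.43 ± 0.08 for Fli1, 0.85 ± 0.15 for Edn1 and 0.44 ± 0.08 for Slc2a1 (limma, adjusted p from 3.46e-06 to 0.00211). Ly6c1 at 0.28 ± 0.08, Ly6a at 0.40 ± 0.13, Abcb1a at 0.18 ± 0.06 and Abcg2 at 0.19 ± 0.05 were then called higher. Pecam1, Cdh5, Esam, Emcn and Eng were no longer called. Of the mural genes 4 were lower and 1 higher, with a median of 0.05. Rgs5 stood at −0.29 ± 0.09, Pdgfrb at −0.17 ± 0.06, Notch3 at −0.39 ± 0.10 and Mcam at −0.42 ± 0.15, while Tagln at 0.31 ± 0.09 was higher and Anpep was not called. Without the 16 libraries highest in olfactory bulb genes, 7 endothelial genes were lower and 2 higher and 4 mural genes were lower, and Aplnr stood at −1.82 ± 0.30. Cldn5, Kdr, Tek, Tie1, Fli1, Aplnr, Edn1, Slc2a1, Rgs5, Pdgfrb and Notch3 kept direction and call in the 10 other settings and in each of the 20 fits without 1 library.

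**Figure D3:**
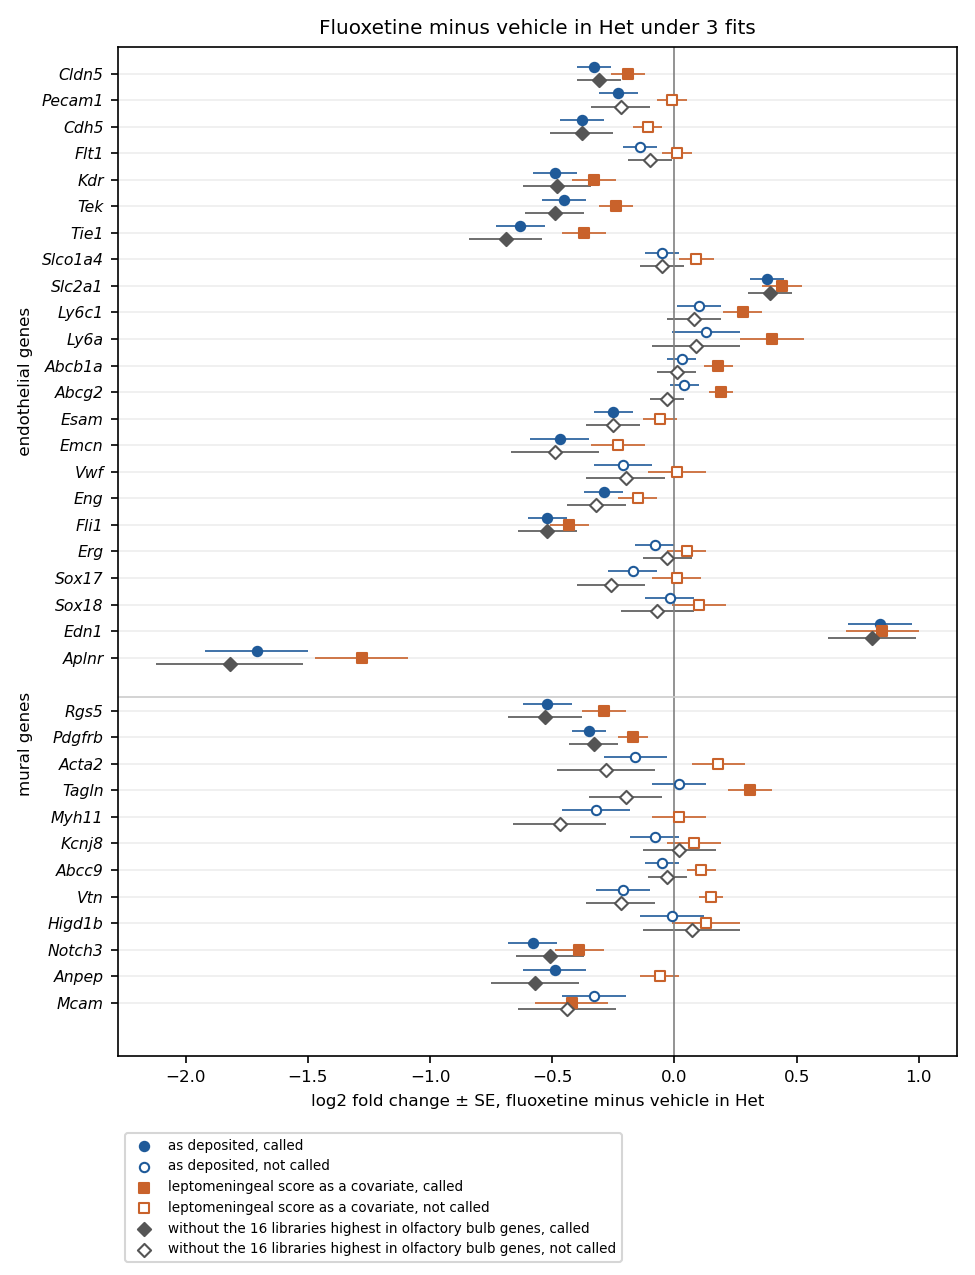
Fluoxetine minus vehicle in Het mice, log2 fold change ± SE of each gene (x axis), in 3 fits, as deposited, with the leptomeningeal score as a covariate, and without the 16 libraries highest in olfactory bulb genes. With the covariate the endothelial median moves to 0.01 against −0.21 as deposited, while Aplnr, Tie1 and Fli1 stay lower and Edn1 and Slc2a1 higher in all 3 fits.

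In WT mice fluoxetine called 3 of the 35 genes. Edn1 and Slc2a1 were higher and Aplnr lower, and no mural gene was called, with 3.14% of all genes called higher and 5.06% lower. At an unadjusted p under 0.05, 1 mural gene and 6 endothelial genes passed. Edn1 stood at 85.3 to 150 (median 113) in WT fluoxetine libraries and 52.7 to 95.1 (median 72) in WT vehicle libraries, a change of 0.66 ± 0.13 (adjusted p = 5.70e-04). Slc2a1 stood at 3763 to 4875 (median 4312) and 2673 to 3914 (median 3673), a change of 0.33 ± 0.07 (adjusted p = 0.00239). Both genes were above the WT vehicle mean in 10 of 10 WT fluoxetine libraries and overlapped at the margins. They kept their call in all 10 other settings and without any single library.

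Aplnr in WT mice stood at 30.1 to 96.9 (median 59.2) with fluoxetine and 46.4 to 149 (median 87.5) with vehicle. The groups overlapped widely, and 9 of 10 WT fluoxetine libraries lay below the WT vehicle mean. The change was −0.63 ± 0.21 (adjusted p = 0.0446). This call was lost in 3 of 10 other settings and without any one of 12 of the 20 libraries, where the change stood at −0.65 to −0.51. Of the genes that fell in Het mice, Tek stood at −0.22 ± 0.09 in WT mice (adjusted p = 0.0896), lower in 10 of 10 libraries, Kdr at −0.04 ± 0.09, Tie1 at −0.12 ± 0.10, Fli1 at −0.17 ± 0.08, Rgs5 at −0.04 ± 0.10 and Notch3 at −0.14 ± 0.10. The endothelial median was −0.01 and the mural median 0.07. The leptomeningeal genes of WT mice had none called and a median of 0.07, with sums of 7270 to 11865 with fluoxetine and 7052 to 11122 with vehicle. Of the perivascular macrophage genes 3 of 7 were higher, with sums of 600 to 932 and 419 to 838, and of the glucocorticoid-responsive genes 3 of 17 were higher and 1 lower, with sums of 23566 to 29609 and 22324 to 28225. Their part in the vascular values was not tested.

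The difference between the genotypes in the response to fluoxetine was called for 1 endothelial and 1 mural gene, both lower in Het mice, against 0.977% of all genes called lower. For Aplnr the fluoxetine change in Het mice was lower than that in WT mice by −1.08 ± 0.29 on the log2 scale (95% interval −1.66 to −0.49, adjusted p = 0.0405). For Pdgfrb it was lower by −0.44 ± 0.10 (95% interval −0.64 to −0.23, adjusted p = 0.0263). Pdgfrb stood at 670 ± 86 in Het fluoxetine, 859 ± 123 in Het vehicle, 815 ± 93.3 in WT fluoxetine and 767 ± 70.8 in WT vehicle libraries (SD, n = 10 each). At an unadjusted p under 0.05, 9 endothelial and 4 mural genes passed, all of them lower. Just short of the threshold were Tie1 (−0.51 ± 0.15, adjusted p = 0.0525), Kdr (−0.45 ± 0.13, adjusted p = 0.0543), Rgs5 (−0.48 ± 0.14, adjusted p = 0.0594) and Esam (−0.39 ± 0.12, adjusted p = 0.0606). Edn1 and Slc2a1 were not called here, with differences of 0.17 ± 0.19 and 0.05 ± 0.10 (95% intervals −0.21 to 0.55 and −0.16 to 0.26).

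Both of these calls were lost in other fits. With the leptomeningeal score as covariate Aplnr stood at −0.57 ± 0.26 and Pdgfrb at −0.22 ± 0.08 (adjusted p = 0.653 and 0.555). In a fit of only the 4 groups they stood at −1.08 ± 0.31 and −0.44 ± 0.11 (adjusted p = 0.0818 and 0.0536). The Aplnr call was lost without any one of 19 of the 40 libraries (values −1.1 to −0.95), and the Pdgfrb call without Het vehicle female replicate 3 or 4 (values −0.41 to −0.4). The leptomeningeal genes had a median of −0.54 in the same comparison, with 1 of 14 called lower, and 12 olfactory bulb genes one of 0.85, none called. The fluoxetine groups were also uneven within. Het fluoxetine female replicate 1 and male replicates 1 and 2 had glucocorticoid-responsive sums of 24535 to 25746 and mural sums of 9507 to 10758. The other Het fluoxetine libraries had 29535 to 34262 and 6446 to 8149. WT fluoxetine female replicates 4 and 5 and male replicate 5 had 29026 to 29609 and 7193 to 9774. The other WT fluoxetine libraries had 23566 to 26858 and 8937 to 11277. The part of any of these in the genotype difference was not tested.

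Lithium was set against the same vehicle mice as fluoxetine, so that the 2 drugs share these libraries. In Het mice 2 endothelial genes were higher and 3 lower, and 2 mural genes were lower, where 5.3% of all genes were called higher and 3.84% lower. Tek stood at 385 to 523 (median 444) in Het lithium libraries and 447 to 818 (median 603) in Het vehicle libraries (−0.38 ± 0.09, adjusted p = 0.00365). Pdgfrb stood at 617 to 773 (median 683) and 688 to 1068 (median 834; −0.30 ± 0.07, adjusted p = 0.00648). The ranges overlapped in both, with all 10 Het lithium libraries below the Het vehicle mean. Notch3 changed by −0.36 ± 0.10, Slc2a1 by 0.28 ± 0.07, Tie1 by −0.33 ± 0.10, Kdr by −0.28 ± 0.09 and Edn1 by 0.40 ± 0.13 (adjusted p = 0.0164, 0.012, 0.0339, 0.0461 and 0.0464). Aplnr stood at 78.5 ± 14.5 in Het lithium and 120 ± 27.6 in Het vehicle libraries (SD, n = 10 each), which missed the threshold (−0.60 ± 0.21, adjusted p = 0.0536).

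Of the lithium calls, 3 were lost without single libraries. Kdr lost its call without any one of 11 of the 20 libraries (values −0.29 to −0.24), Tie1 without any one of 10 (−0.34 to −0.27) and Edn1 without any one of 12 (0.33 to 0.43). The leptomeningeal genes had 4 of 14 called lower in these mice, with a median of −0.34 and sums of 5817 to 9033 with lithium and 6557 to 13187 with vehicle. With the leptomeningeal score as covariate Slc2a1 was the one vascular gene still called (0.34 ± 0.08, adjusted p = 0.00978), and no mural gene was. Lithium called 944 of all 17807 genes higher in Het and 339 in WT mice. Among erythrocyte genes, Slc4a1 was at 0 in some libraries. Erythrocyte genes were higher with lithium, 4 of 6 in Het and 3 of 6 in WT mice, with medians of 0.70 and 0.68. Their sums were 3529 to 14403 in Het lithium, 3257 to 8800 in Het vehicle, 6635 to 15272 in WT lithium and 4635 to 7359 in WT vehicle libraries. The part of either list in the vascular values was not tested.

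In WT mice lithium called none of the 35 genes by limma, against 2.97% of all genes in either direction, and 4 endothelial and 2 mural genes passed an unadjusted p under 0.05. The nearest was Slco1a4, at 1604 ± 152 and 1878 ± 214 in WT lithium and WT vehicle libraries (SD, n = 10 each; −0.23 ± 0.07, adjusted p = 0.0627). The difference between genotypes in the lithium change was called for none of the 35 and for 0% of all genes (1 endothelial gene at an unadjusted p under 0.05). For no vascular gene was its adjusted p below 0.99.

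Averaged over both genotypes, lithium called Slc2a1 (0.24 ± 0.05, adjusted p = 6.67e-04) and Edn1 (0.31 ± 0.09, adjusted p = 0.0169) higher and 5 endothelial genes lower, with 10.3% of all genes higher and 8.79% lower. Tek led the lower genes (−0.30 ± 0.06, adjusted p = 2.81e-04; lower in 19 of 20 libraries). Slco1a4 (−0.20 ± 0.05, adjusted p = 0.00298), Cdh5 (−0.20 ± 0.06, adjusted p = 0.02) and Tie1 (−0.21 ± 0.07, adjusted p = 0.0377) followed, and Abcb1a (−0.12 ± 0.05) lay at the threshold. Tie1 lost its call without any one of 15 of the 40 libraries (−0.2 to −0.18) and Abcb1a without any one of 29 (−0.12 to −0.1). Of mural genes Notch3 (−0.29 ± 0.07, adjusted p = 0.00239) and Pdgfrb (−0.21 ± 0.05, adjusted p = 0.00266) were lower.

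The same average for fluoxetine had 9 endothelial genes lower and 2 higher and 4 mural genes lower, with 16% of all genes lower and 17.6% higher. Of the Het calls, those of Pecam1, Esam and Anpep were not made in this average. Mcam, not called in Het mice, was lower in it (−0.30 ± 0.09, adjusted p = 0.0098). Edn1 was above the vehicle mean of its genotype in 20 of 20 libraries (0.75 ± 0.09, adjusted p = 1.45e-08), as was Slc2a1 (0.35 ± 0.05, adjusted p = 6.80e-07), and Tek was below it in 20 of 20 (−0.33 ± 0.06, adjusted p = 2.03e-05). Pdgfrb was called at −0.14 ± 0.05 (adjusted p = 0.0325), with opposite signs in the genotypes (−0.35 ± 0.07 in Het and 0.08 ± 0.07 in WT mice), and lost that call without any one of 10 of the 40 libraries (−0.13 to −0.12).

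Fluoxetine and lithium were also set against each other over both genotypes. Edn1 was higher with fluoxetine by 0.44 ± 0.09 (adjusted p = 2.39e-04), and Abcb1a and Abcg2 by 0.15 ± 0.05 and 0.12 ± 0.04 (adjusted p = 0.0101 and 0.0163). Aplnr was lower by −0.79 ± 0.15 (adjusted p = 3.06e-05), Fli1 by −0.27 ± 0.06 (adjusted p = 1.25e-04) and Eng by −0.15 ± 0.06 (adjusted p = 0.0404). These 3 higher and 3 lower endothelial genes stand against 14.6% and 14.3% of all genes. Fli1 averaged 102 ± 15.4 in Het fluoxetine and 138 ± 11.4 in Het lithium libraries, and 131 ± 16.7 in WT fluoxetine and 140 ± 18.2 in WT lithium libraries (SD, n = 10 each). No mural gene was called by limma, and 2 passed an unadjusted p under 0.05. For Slc2a1 the difference was 0.11 ± 0.05 (95% interval 0.00 to 0.21) and for Tek −0.03 ± 0.06 (95% interval −0.15 to 0.09). Eng lost its call without any one of 16 of the 40 libraries (−0.15 to −0.12).

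Between the genotypes, differences were called under fluoxetine. There Het mice were lower than WT mice in 3 endothelial and 3 mural genes and higher in none, against 3.88% and 3.45% of all genes. Fli1 stood at 102 ± 15.4 in Het fluoxetine and 131 ± 16.7 in WT fluoxetine libraries (SD, n = 10 each; −0.37 ± 0.08, adjusted p = 0.00365), with all 10 Het libraries below the WT mean. Tie1 stood at 203 to 388 (median 270) and 276 to 439 (median 376; −0.42 ± 0.10, adjusted p = 0.0104). Aplnr stood at 37.9 ± 16.1 and 63.3 ± 25.4 (SD, n = 10 each; −0.71 ± 0.21, adjusted p = 0.0267). All of these groups overlapped.

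Of the mural genes Pdgfrb differed by −0.28 ± 0.07, Rgs5 by −0.40 ± 0.10 and Notch3 by −0.34 ± 0.10 (adjusted p = 0.0126, 0.0132 and 0.0277). Rgs5 stood at 2489 to 4656 (median 2988) in Het fluoxetine and 2889 to 4981 (median 4492) in WT fluoxetine libraries. The ranges overlapped for most of their length. Aplnr lost its call without any one of 7 of the 20 libraries (−0.69 to −0.61) and Notch3 without any one of 8 (−0.33 to −0.29). The leptomeningeal genes had 4 of 14 lower in this comparison (median −0.41). The olfactory bulb genes had a median of 1.09 and none called, with sums of 2716 to 23929 in Het fluoxetine and 3695 to 8671 in WT fluoxetine libraries. None of the 6 vascular genes was called with the leptomeningeal score as covariate, without the 16 libraries highest in olfactory bulb genes, or when only the groups compared were fitted. Tie1, for example, stood at −0.22 ± 0.08 (adjusted p = 0.218), −0.43 ± 0.13 (adjusted p = 0.0812) and −0.42 ± 0.11 (adjusted p = 0.0724) in those fits.

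**Figure D4:**
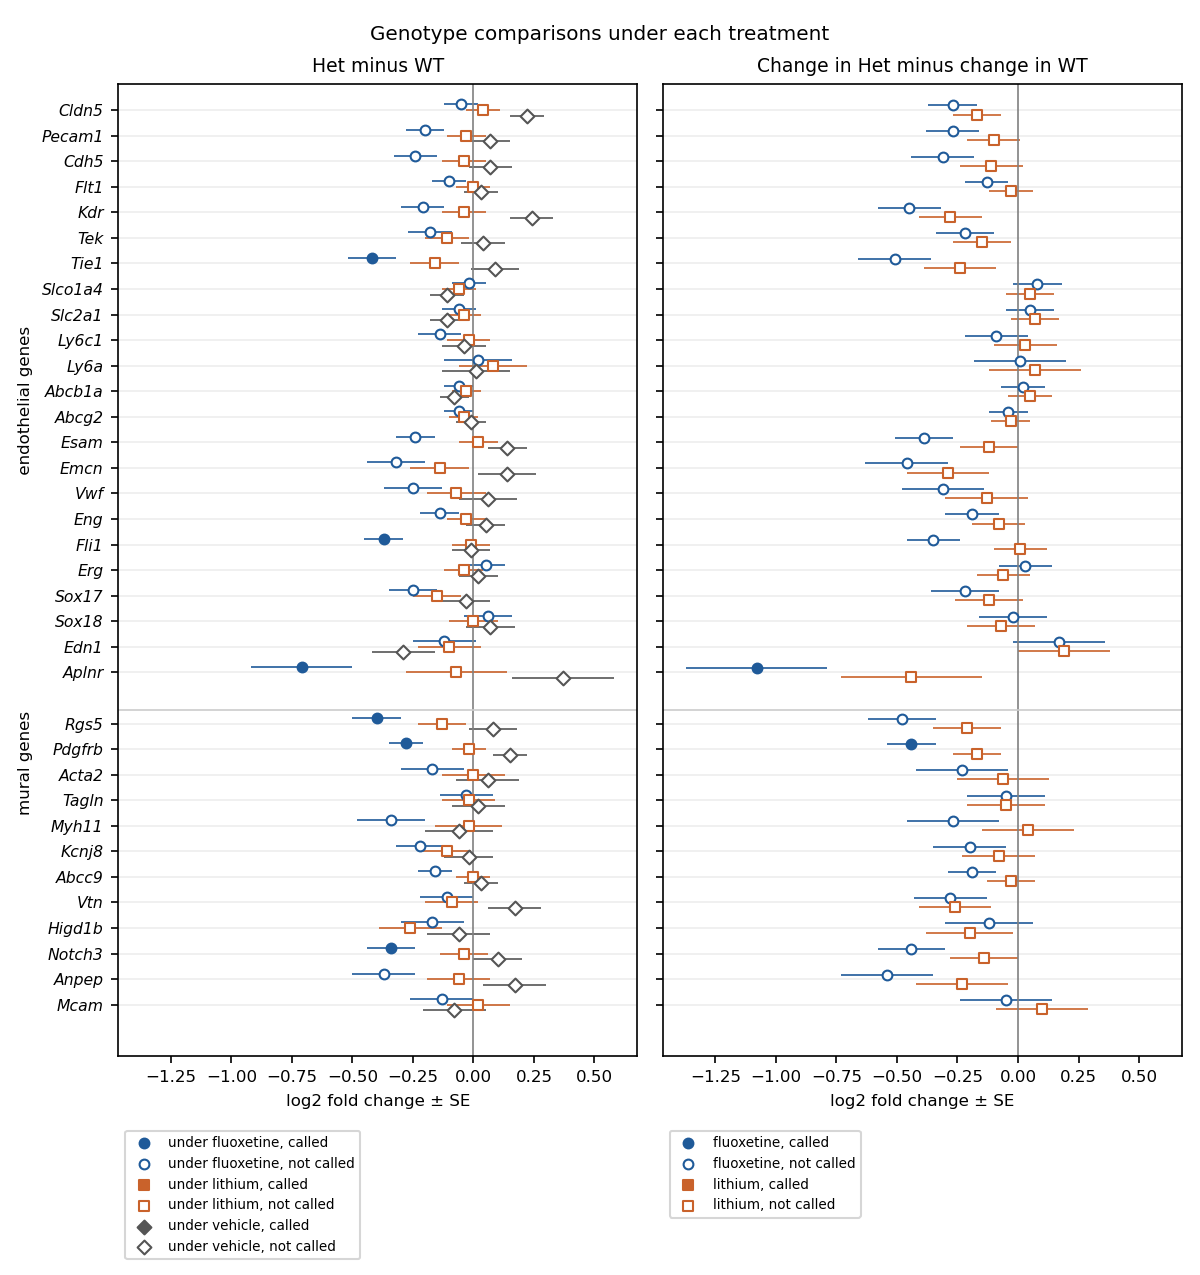
Left, log2 fold change ± SE of Het minus WT for each gene under fluoxetine, lithium and vehicle. Right, the difference between the drug change in Het and in WT mice, for fluoxetine and lithium. Filled symbols are called. Het minus WT differences are called under fluoxetine for Tie1, Fli1, Aplnr, Rgs5, Pdgfrb and Notch3, and the right panel has Aplnr at −1.08 and Pdgfrb at −0.44 for fluoxetine.

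Without a drug, no vascular gene was called between Het and WT mice by limma, against 0.0562% of all genes, and 3 endothelial and 1 mural gene passed an unadjusted p under 0.05. Kdr stood at 826 ± 113 in Het vehicle and 699 ± 104 in WT vehicle libraries (SD, n = 10 each; 0.24 ± 0.09, adjusted p = 0.535), Cldn5 at 1081 ± 160 and 922 ± 65.8 (0.22 ± 0.07, adjusted p = 0.444) and Edn1 at 59.4 ± 14.5 and 72.2 ± 12.8 (−0.29 ± 0.13, adjusted p = 0.615). Het vehicle values thus lay above WT for Kdr and Cldn5 and below for Edn1, and the drug changes in Het mice are taken from these same libraries. Under lithium none was called, against 0.0393% of all genes, and none passed an unadjusted p under 0.05. Over all 3 treatments none was called either, against 1.54% of all genes, and 4 endothelial and 2 mural genes passed an unadjusted p under 0.05. The nearest was Fli1 (−0.13 ± 0.05, adjusted p = 0.136).

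Split by sex, with 5 libraries a group, fluoxetine changed vascular genes of Het mice in males and in females. In Het males 8 endothelial genes were lower and 2 higher and 4 mural genes lower, against 10.7% and 12% of all genes. In Het females 9 endothelial genes were lower, 2 higher and 4 mural genes lower, against 8.04% and 7.08%. Aplnr did not overlap between fluoxetine and vehicle in either sex (−1.66 ± 0.29 in males and −1.75 ± 0.29 in females, adjusted p = 9.33e-05 and 6.13e-05). Nor did Kdr (−0.44 ± 0.13 and −0.55 ± 0.13, adjusted p = 0.0133 and 0.00324) and Fli1 (−0.41 ± 0.11 and −0.64 ± 0.11, adjusted p = 0.00676 and 1.16e-04). The share of all genes without overlap was not counted in any comparison. Edn1 was higher by 0.82 ± 0.19 and 0.85 ± 0.19 (adjusted p = 0.00159 and 0.00155). Emcn and Mcam were called in males, and Esam, Eng and Anpep in females. The difference between the sexes was itself called for none of these 5, being largest for Mcam (−0.55 ± 0.26, adjusted p = 0.392).

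In WT females fluoxetine called Edn1 (0.81 ± 0.19, adjusted p = 0.0106) and Slc2a1 (0.40 ± 0.10, adjusted p = 0.0257) higher and no vascular gene lower, against 0.607% and 1.9% of all genes. In both genes the 5 WT fluoxetine females lay above all 5 WT vehicle females. WT males had no call. Lithium called 1 gene in a single sex, Notch3 in Het males (−0.49 ± 0.14, adjusted p = 0.0466), where 0.562% of all genes were lower. Under fluoxetine Fli1 was lower in Het females than in WT females (−0.53 ± 0.11, adjusted p = 0.04), without overlap between the groups, where 0.0393% of all genes were lower.

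Tests of the sex difference in a drug change called none of the 35 genes by limma, and at an unadjusted p under 0.05 there were 2 for fluoxetine in Het, 1 for fluoxetine in WT, 1 for lithium in Het and 0 for lithium in WT mice. For fluoxetine in Het mice 0.0112% of all genes were called, and for fluoxetine in WT, lithium in Het and lithium in WT mice 0% were. Male minus female over all groups called no vascular gene, against 0.14% of all genes, and none passed an unadjusted p under 0.05.

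**Figure D5:**
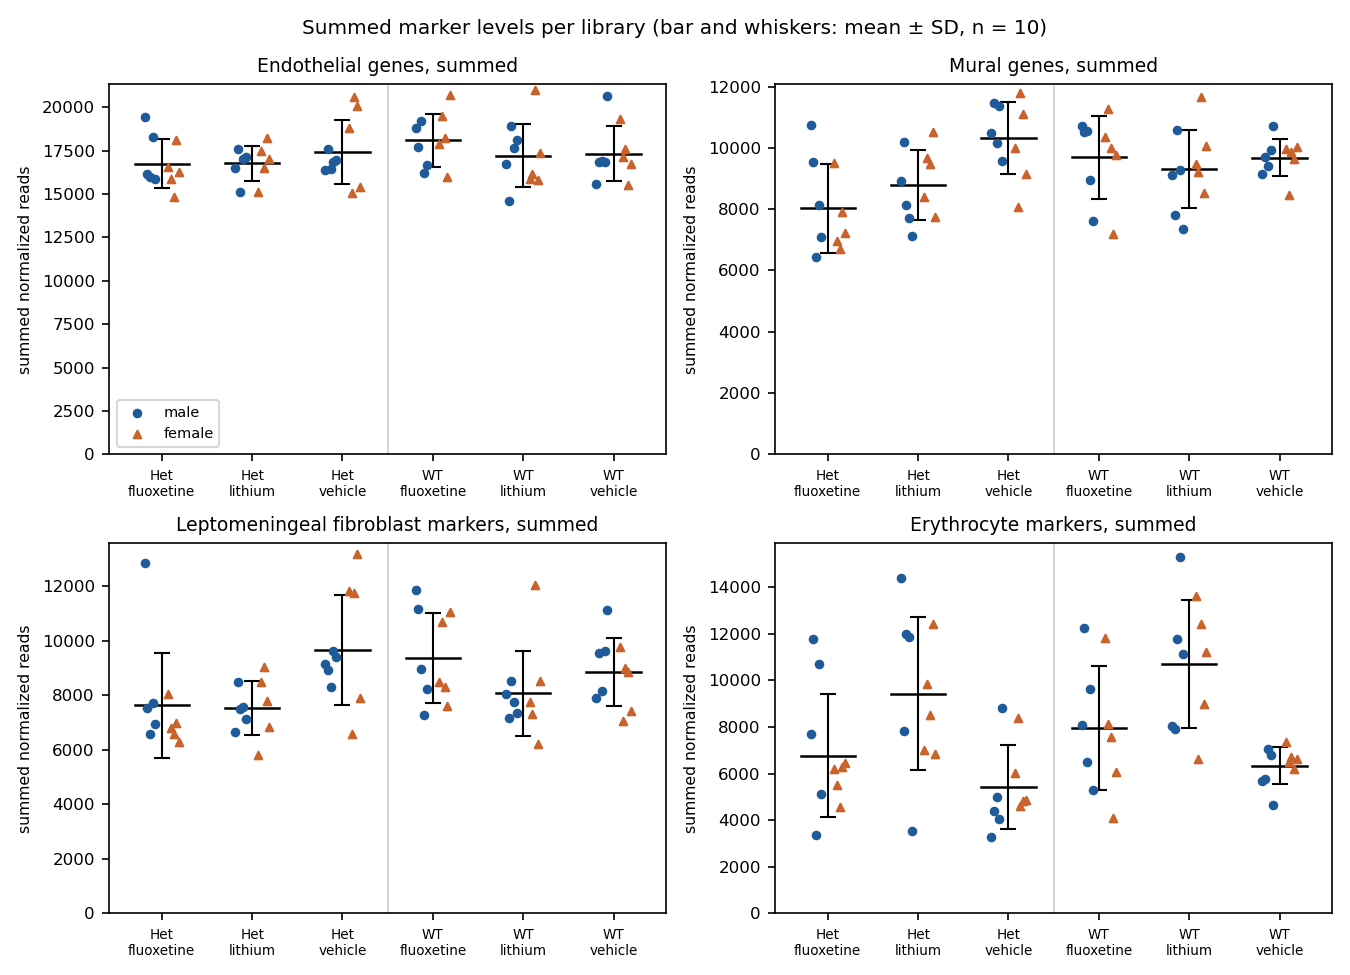
Summed normalized counts per library of the 23 endothelial genes, the 12 mural genes, 14 leptomeningeal fibroblast genes and 6 erythrocyte genes, for Het fluoxetine, Het lithium, Het vehicle, WT fluoxetine, WT lithium and WT vehicle mice (circles males, triangles females, bars mean ± SD, n = 10). The mural sum averages 8031 in Het fluoxetine and 10319 in Het vehicle libraries, and the erythrocyte sum 9419 in Het lithium and 5417 in Het vehicle libraries.

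Summed levels were led by the most abundant genes. The 23 endothelial genes added up to 16741 ± 1416 in Het fluoxetine and 17425 ± 1860 in Het vehicle libraries (SD, n = 10 each). The rise of Slc2a1, the largest term, offset part of the falls of others. In WT mice the sums were 18090 ± 1513 with fluoxetine and 17323 ± 1579 with vehicle. The 12 mural genes, of which Rgs5 is the largest, added up to 8031 ± 1448 in Het fluoxetine, 8791 ± 1142 in Het lithium and 10319 ± 1173 in Het vehicle libraries. The WT values were 9691 ± 1361 with fluoxetine, 9308 ± 1271 with lithium and 9684 ± 592 with vehicle. The groups overlapped in every one of these comparisons.

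Further vascular genes were counted from lists chosen for their roles. In Het mice fluoxetine called 13 of 23 other endothelial genes lower and 1 higher (median −0.32), and 7 of 19 other mural genes lower and 1 higher (median −0.14), where 16% of all genes were called lower and 16.9% higher. Cd93, a surface receptor of endothelial cells, stood at 309 ± 62.6 in Het fluoxetine and 593 ± 114 in Het vehicle libraries (SD, n = 10 each; −0.94 ± 0.13, adjusted p = 2.01e-07). Ushbp1 changed by −0.63 ± 0.10 (adjusted p = 6.39e-06), and Slc22a8, an organic anion carrier of the barrier, by −0.56 ± 0.09 (adjusted p = 9.76e-06). Mmrn2 (multimerin 2), an endothelial matrix protein, was lower in Het mice than in WT mice over all treatments (−0.37 ± 0.06, adjusted p = 2.75e-04) and under lithium (−0.52 ± 0.11, adjusted p = 0.0411), where it stood at 83.5 ± 6.94 in Het lithium and 122 ± 26.9 in WT lithium libraries (SD, n = 10 each).

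Of the other mural genes, Smtn (smoothelin), of contractile smooth muscle, was lower with fluoxetine over both genotypes (−0.41 ± 0.07, adjusted p = 5.13e-06). Ebf1, a transcription factor of brain mural cells, was lower with lithium over both genotypes (−0.50 ± 0.10, adjusted p = 1.82e-04), at 93 ± 17.1 in Het lithium and 150 ± 28.5 in Het vehicle libraries (SD, n = 10 each). Itga8 rose with fluoxetine over both genotypes (0.24 ± 0.05, adjusted p = 4.24e-04), and Art3 under fluoxetine was lower in Het mice than in WT mice (−0.43 ± 0.10, adjusted p = 0.00644). In WT mice fluoxetine called 1 of the 23 endothelial and 1 of the 19 mural genes, both higher, against 3.14% of all genes.

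The ligands and receptors that pair with the listed genes were lower in Het fluoxetine mice in 15 of 23 cases, none higher (median −0.28). In WT mice 2 were lower (median −0.10). Of all genes, fluoxetine called 16% lower in Het and 5.06% lower in WT mice, so the WT count lies near that share. Vegfa, the ligand of Kdr and Flt1, stood at 1626 ± 71.1 in Het fluoxetine and 2168 ± 190 in Het vehicle libraries (SD, n = 10 each; −0.41 ± 0.05, adjusted p = 1.63e-08). Ece1, the enzyme that cuts endothelin to its active form, was lower with fluoxetine over both genotypes (−0.25 ± 0.03, adjusted p = 1.08e-07). The Notch ligand Jag2 was lower in Het mice (−0.27 ± 0.04, adjusted p = 6.66e-07). Pdgfb, the ligand of Pdgfrb, was higher with lithium over both genotypes (0.27 ± 0.04, adjusted p = 7.15e-06), at 1138 ± 86.3 in Het lithium and 923 ± 59.2 in Het vehicle libraries and at 1112 ± 78.6 in WT lithium and 939 ± 54.2 in WT vehicle libraries (SD, n = 10 each). Further pairs were picked after their values were seen. In Het mice fluoxetine changed Apln, the ligand of Aplnr, by −0.65 ± 0.16, the endothelin receptors Ednra and Ednrb by −0.39 ± 0.09 and −0.51 ± 0.14, and Angpt1, the ligand of Tek, by −0.25 ± 0.09 (adjusted p = 0.00177, 5.13e-04, 0.00333 and 0.0182). Neurons and astrocytes also express several of these ligands and receptors.

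Of 21 genes of the barrier and its Wnt pathway 12 were lower and 1 higher with fluoxetine in Het mice (median −0.17), and 3 lower in WT mice. The shares of all genes were 16% lower and 16.9% higher in Het mice and 5.06% lower in WT mice. Adgra2, the Wnt7 co-receptor of brain endothelium, changed by −0.50 ± 0.09 in Het mice (adjusted p = 1.83e-05). Lef1, a transcription factor through which Wnt signals act, was lower over both genotypes (−0.45 ± 0.07, adjusted p = 2.19e-06), as was the amino acid carrier Slc7a1 (−0.27 ± 0.03, adjusted p = 1.34e-08). Ctnnb1 (beta-catenin) was lower with lithium over both genotypes (−0.26 ± 0.02, adjusted p = 1.51e-13), but it is expressed by all cell types of the cortex. Of 10 arterial and venous genes 6 were lower with fluoxetine in Het mice (median −0.22). The venous amino acid carrier Slc38a5 changed by −0.97 ± 0.16, the arterial gene Gkn3 by −1.09 ± 0.24 and the adhesion molecule Vcam1 by −0.38 ± 0.09 (adjusted p = 9.39e-06, 3.49e-04 and 0.00108). The venous factor Nr2f2 was lower with lithium in Het mice (−0.36 ± 0.08, adjusted p = 0.00337).

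Pairs of genes, most of them with linked roles, were compared from mouse to mouse within groups. Edn1 and Slc2a1 were paired as genes that both rose with fluoxetine. No reference pairs of other genes were compared, so the values do not speak for a linked role. The part that vessel content of each library had in them was not tested. Over the 60 libraries, each as its deviation from its group mean, 6 pairs were compared by a permutation test within groups, with Benjamini-Hochberg adjustment over the 6. Acta2 and Tagln, both of smooth muscle, had a Pearson r of 0.88 and a Spearman rho of 0.88. For Tek and Tie1 these were 0.68 and 0.63, for the channel subunits Kcnj8 and Abcc9 0.67 and 0.67, and for Pdgfrb and Notch3 0.63 and 0.65 (adjusted p = 1.5e-05 in each, from 1.0e-05, the smallest that 100000 permutations can give). For Kdr and Flt1 they were 0.50 and 0.44 (adjusted p = 7.8e-04 and 0.00216). For Edn1 and Slc2a1, both higher with fluoxetine, they were 0.19 and 0.15 (adjusted p = 0.205 and 0.304). Without the 2 libraries farthest from the median of the first gene, r was 0.88, 0.60, 0.64, 0.65, 0.44 and 0.11 in the same order of pairs.

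The other 15 genes were called in none of the 10 comparisons of genotype and drug with both sexes averaged. They are Flt1, Ly6c1, Ly6a, Abcg2, Vwf, Erg, Sox17 and Sox18 of the endothelial genes and Acta2, Tagln, Myh11, Kcnj8, Abcc9, Vtn and Higd1b of the mural genes.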

How the data were processed

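Stranded mRNA libraries, 1 for each of 60 mice, were made from prefrontal cortex, per the labels' protocols. Tools named in the submitters' processing notes, with no role given, are R 3.6.0, DESeq2 1.19.11 and Salmon 0.11.2, beside the build GRCm38. The authors deposited 1 table of 18088 genes as a normalized signal, which the values show to be read counts divided by a factor per library, at a tolerance of 0.001. Recovered depths were 24.05 to 31.65 M reads (median 28.31 M), and the 35 genes, at 22.9 or more in every library, lay well above the lowest step of 1 read. GENCODE M21 named 18077 genes. The sources used here do not say how reads shared by near-identical genes were split, which leaves Ly6c1, Ly6a and Abcb1a, with their close paralogs, less certain.

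Groups of genotype, treatment and sex came from the labels. Genes at 10 or more in at least 5 libraries (17807) were tested on log2(value + 1), a scale that understates changes of low genes. Limma 3.58.1 with an intensity trend (R 4.3.3) was fitted with 1 mean per group to all 60 libraries, leaving 48 residual degrees of freedom. Tests were two-sided, with Benjamini-Hochberg adjustment over all tested genes within each comparison, and a gene was called at an adjusted p under 0.05. The code was tested on simulated data. Replicates were compared in 120 pairs, and none agreed within sampling noise (chi-square per degree of freedom 3.95 to 65.8). Scores of leptomeningeal and olfactory bulb genes were used as covariates, and 16 libraries highest in olfactory bulb genes were left out, as alternatives beside others of scaling, pseudocount, filter, samples fitted, replicate block and single libraries left out. Tables, permutations and figures used Python 3.11.15, numpy 2.4.6, pandas 2.3.3 and scipy 1.17.1.

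The 35 genes and all other lists were chosen with earlier results of these data known. All 35, Chd8 and up to 4 genes of each other list with the smallest p over the 10 comparisons of genotype and drug were named, and a gene named outside that rule is said to be. Promoter windows are from RefSeq on GRCm38.p6.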

Additional observations from a re-analysis of the deposited data

Results flagged for a closer look

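Each of the 35 genes was looked at in each of the 12 groups of 5 libraries for a single library far from the other 4, by Dixon's ratio of gap to range with the critical value of 0.71. Of 420 combinations 29 were found, where chance gives about 5%. They gathered in a few libraries.

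WT vehicle male replicate 5 held 8 of them, all high. It stood at 2349 for Flt1 (others 1647 to 1820), 699 for Tek (527 to 560), 2275 for Slco1a4 (1721 to 1799) and 1119 for Ly6c1 (785 to 821). It further stood at 834 for Ly6a (294 to 333), 1538 for Abcb1a (1185 to 1285), 176 for Fli1 (136 to 144) and 314 for Anpep (193 to 218). Its leptomeningeal sum was 11122, the highest of the WT vehicle libraries. WT lithium female replicate 3 held 5, all high, with 1220 for Ly6c1 (711 to 855), 617 for Ly6a (269 to 359), 786 for Abcg2 (544 to 613), 600 for Notch3 (513 to 535) and 354 for Anpep (170 to 217). Its leptomeningeal sum was 12036, the highest of the WT lithium libraries.

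Of the Het libraries, Het fluoxetine female replicate 1 was high in Aplnr at 48.9 (24.1 to 31) and in Acta2 at 594 (345 to 411). Het fluoxetine female replicate 3 was low in Kdr at 472 (547 to 574) and replicate 4 high in Slc2a1 at 4699 (3842 to 4027). Het fluoxetine male replicate 1 was high in Abcg2 at 849 (641 to 679), and Het lithium male replicate 2 high in Cldn5 at 1027 (895 to 930). Het vehicle male replicate 2 was low in Edn1 at 37.9 (59.5 to 66.1), and replicate 3 low in Notch3 at 504 (709 to 780).

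Of the other WT libraries, WT fluoxetine female replicate 4 was low in Eng at 527 (789 to 867) and Anpep at 162 (238 to 266). WT fluoxetine male replicate 4 was low in Ly6a at 299 (377 to 405) and Abcg2 at 623 (678 to 694), and replicate 5 high in Edn1 at 148 (85.3 to 101). WT lithium male replicate 2 was low in Cldn5 at 684 (909 to 971) and Eng at 499 (747 to 838), and WT lithium female replicate 1 low in Kcnj8 at 75.6 (113 to 121).

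The fluoxetine change differed between Het and WT mice in the test of the difference itself for Aplnr (−1.08 ± 0.29) and Pdgfrb (−0.44 ± 0.10). Both calls were lost in 4 of 10 other settings, that of Aplnr also without any one of 19 of the 40 libraries and that of Pdgfrb without either of 2.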

How the results depend on the processing

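Counts of called genes are given as endothelial and then mural. Both directions are summed in them, so a shift from lower to higher calls does not show. For fluoxetine in Het mice the leptomeningeal score as covariate gave fewer lower and more higher endothelial calls, as described above. The summed counts stayed within 1.5 times the value as reported, except as follows. For Het minus WT under fluoxetine (3 and 3), the counts were 0 and 0 when only the groups compared were fitted, without the 16 libraries highest in olfactory bulb genes, with both scores as covariates, and with the leptomeningeal score alone. For fluoxetine in WT mice (3 and 0) the endothelial count was 5 with both scores. For lithium in Het mice (5 and 2), the endothelial count was 3 with only the groups compared, 1 without the 16 libraries, 1 with both scores, 1 with the leptomeningeal score and 2 with the olfactory bulb score, and the mural count was 0 without the 16 libraries, with both scores and with the leptomeningeal score. For lithium in WT mice (0 and 0), the endothelial count was 2 with only the groups compared and without the 16 libraries, and 1 with both scores or either score, and the mural count was 1 with only the groups compared. Over both genotypes, the mural count for fluoxetine (4) was 2 without the 16 libraries, and that for lithium (2) was 0 with both scores. For fluoxetine against lithium the mural count (0) was 1 with quantile normalization, rescaled totals, only the groups compared or without the 16 libraries, and 2 with both scores or the leptomeningeal score.

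For the difference between genotypes in the fluoxetine change (1 and 1), the endothelial count was 2 with rescaled totals and 3 with the olfactory bulb score. Both counts were 0 with only the groups compared, without the 16 libraries, with both scores and with the leptomeningeal score. With the replicate block they were 2 and 2. Over all genes, same-numbered libraries of different groups had a median r of 0.00112 over 330 pairs, of which 59 were over 0.1. Other-numbered libraries had a median of −0.00176 over 1320 pairs, of which 184 were over 0.1. A median over all genes cannot exclude a shift shared by part of the genes. The glucocorticoid-responsive sum was higher in replicate 5 than in replicate 1 of every fluoxetine and lithium group. In Het fluoxetine males it was 29648 against 25310, and in WT lithium females 25065 against 24977. In vehicle groups it went both ways. Its source was not tested.

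Without single libraries, counts for Het minus WT under fluoxetine ran from 2 to 7 and from 2 to 5. The 7 came without Het fluoxetine male replicate 1 or WT fluoxetine female replicate 4, and the 5 without Het fluoxetine female replicate 1 or male replicate 1. For fluoxetine in Het mice they ran from 12 to 14 and from 4 to 6, and over both genotypes from 11 to 12 and from 3 to 5. For lithium in Het mice they ran from 2 to 8, the 8 without Het vehicle female replicate 2, and from 2 to 3. For lithium in WT mice the endothelial count was 0 to 1, the 1 without WT lithium female replicate 3. For lithium over both genotypes they ran from 5 to 10 and from 2 to 4, the 4 without Het lithium male replicate 2. For the genotype difference in the fluoxetine change they ran from 0 to 7, the 7 without WT fluoxetine female replicate 4, and from 0 to 4, the 4 without Het fluoxetine male replicate 1 or WT fluoxetine female replicate 4 and the 0 without Het vehicle female replicate 3 or 4. For fluoxetine against lithium the mural count was 0 to 1, the 1 without any one of 18 libraries. The causes were not tested. No direction of a called gene was reversed in these fits. The planned count tests with edgeR and DESeq2 were not run, since the table holds normalized values. In 9 libraries the step of 1 read lies close to 1, and recovered reads were therefore not used for tests. The depths given above do take the step as 1 read in every library. The labels give no litters or dams, so neither could be modelled. Higd1b and Aplnr, with means of 44.8 and 80.2 normalized counts over all libraries, are where depth limits precision most.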
